A study of Saccharomyces cerevisiae with 2 samples.

Results

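The 42 strains described here each lack 1 copy of a gene close to TUB1 on the left arm of chromosome XIII of Saccharomyces cerevisiae. They were chosen by position, as the genes with systematic names from YML055 to YML115 around TUB1 (YML085C), apart from 17 named genes, TUB1 among them. Of 44 genes that the rule left in the gene table, 43 had a tag on the array and 42 gave a value on both arrays, out of 5219 strains measured in all. HUG1 had no tag here, and ALO1 was set aside because 2 tag pairs carry its name. The ORF numbers of this arm rise from the centromere to the telomere, so 25 members lay on the centromere side of TUB1 and 17 on its telomere side.

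The study transformed a pool of 5896 haploid-convertible heterozygous diploid knockout strains with a tub1D::URA3 cassette, which replaces TUB1, or with a ura3D::URA3 cassette as the control. Transformants grew for 2 days at 30 degrees on SC-Ura medium, and the tags that identify each strain were amplified from genomic DNA, although the labels name total RNA as the molecule. Tags of the control pool carried Cy5 and those of the tub1 pool Cy3, and both were hybridised together on 2 arrays, which form 1 group. Both pools share the starting strains, each with 1 deleted gene copy. A strain of the tub1 pool, that of TUB1 apart, is a double heterozygote where the cassette replaced 1 TUB1 copy. Whether the arrays came from separate transformations is not given in the sources used here, so the spread between them may be technical.

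TUB1 encodes the major alpha-tubulin, which pairs with beta-tubulin to form the subunit of microtubules. A replacement cassette enters a yeast chromosome by homologous recombination at sequence shared with its target. In a strain whose deleted gene lies beside TUB1, the strain's own marker and the cassette's target sit close together on the same pair of homologous chromosomes. The gene functions named below serve as identification, since the members share a place and not a pathway.

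Values are log2 ratios with the sign as deposited, centred on the median of each array and tag set. Each strain has a first and a second tag, and a strain value is the mean of its tags, given as mean ± SD over n = 2 arrays. Which pool stands above the line in the ratio is not given in the sources used here. If it is the usual red over green, a positive value stands for a tag more abundant in the control pool and a negative value for one more abundant in the tub1 pool, which the dyes make likely. The strain lacking TUB1 itself gave no check, since its tags had values in 0 of 4 cases. The arrays differed in their lower end: 19.3% of all strains were at least 2-fold negative on array 1 and 5.84% on array 2. Across the 42 members, which share pools and hybridisations, the arrays correlated with a Spearman rho of 0.74, against 0.61 across all strains.

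**Figure D1:**
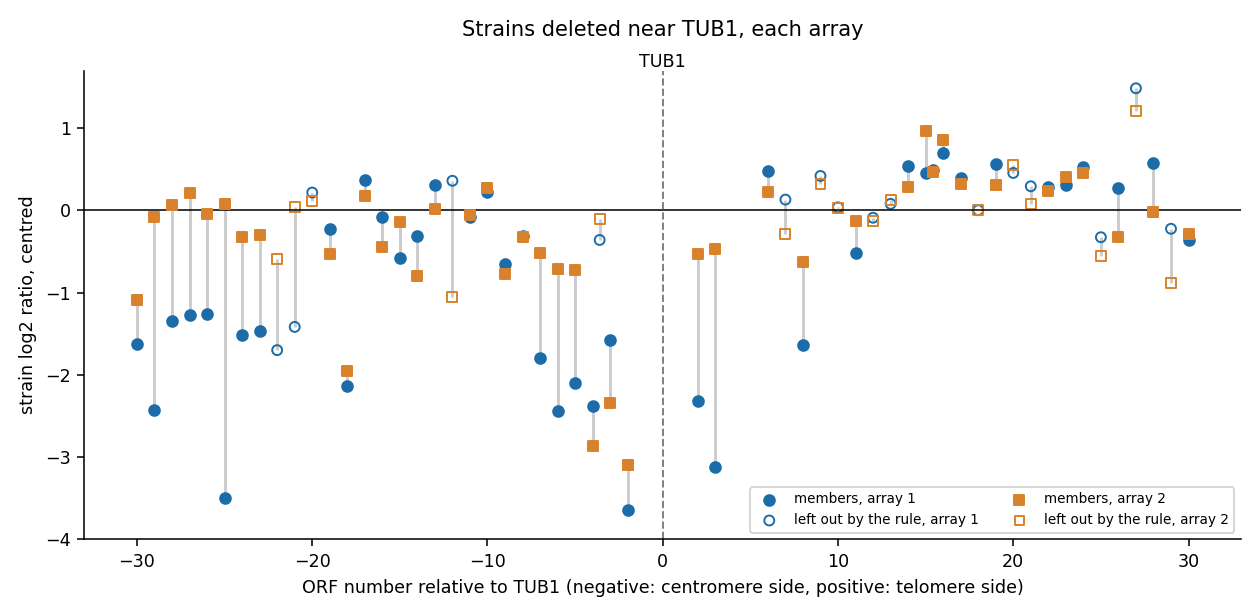
Strain log2 ratio (vertical axis) against the ORF number relative to TUB1 (horizontal axis), with array 1 as circles and array 2 as squares joined by a line. Filled points are members and open points are strains of the interval that the rule leaves out. The members within 5 ORF numbers of TUB1 lie between -3.65 and -0.47 on either array, and beyond ORF number 10 on the telomere side the members lie between -0.51 and 0.97.

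The strains close to TUB1 had low ratios, with YML083C and TDA9 the lowest of all members, although ERV41 and OGG1, farther out, were lower than several of them. All 6 measured members within 5 ORF numbers were negative on both arrays, where 41.7% of all strains were, and their median was -1.88, against -0.09 over all strains. In 5 of these 6 strains all 4 tag values were negative, as in 12 of the 42 members and 20.1% of the strains with all 4 values. Away from TUB1 the sides differed. On the telomere side, members more than 10 ORF numbers away had a median of 0.36 and 9 of 13 were positive on both arrays, against 32.7% of all strains. On the centromere side, members 21 to 30 numbers away were low on array 1 (median -1.49) and near 0 on array 2 (median -0.06).

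YML083C, an uncharacterised gene, is the measured member nearest to TUB1 on the centromere side. Its first tag gave -3.35 on array 1 and -1.17 on array 2, and its second tag -3.94 and -5.01. The strain value of -3.37 ± 0.39 was a 10.3-fold difference between pools and stood at rank 4 from the lowest of all 5219 strains. Both tags were low on both arrays, although the second tag lay far below the first on array 2. YML082W, the next gene, is also uncharacterised. It had -2.35 and -1.56 for the first tag and -0.80 and -3.14 for the second, on arrays 1 and 2 in that order, and averaged -1.96 ± 0.55. All its values were negative, but the lower tag was the first on array 1 and the second on array 2.

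TDA9 encodes a zinc-finger DNA-binding protein. Its first tag gave -1.94 on array 1 and -1.14 on array 2, and its second tag -2.82 and -4.60. The strain value was -2.63 ± 0.35, a 6.17-fold difference, and stood at rank 19 from the lowest. YML083C and TDA9 were the only members with all 4 tag values at least 2-fold negative, which held for 0.597% of the strains that had all 4 values.

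DUS1, a tRNA dihydrouridine synthase gene, followed at 5 ORF numbers from TUB1. Its tags gave -1.57 and -2.62 on array 1 and -0.79 and -0.65 on array 2, with a strain value of -1.41 ± 0.97. CFF1 had -1.35 and -3.52 on array 1 and -1.47 and 0.04 on array 2, averaging -1.58 ± 1.22. CPR3, the gene of a mitochondrial cyclophilin, had -1.52 and -2.06 on array 1 and -0.56 and -0.49 on array 2, averaging -1.16 ± 0.90. In these 3 strains array 1 was lower than array 2 by more than 1 log2 unit, which the SD reflects, and the sign was negative on both.

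The next 3 strains outward on the centromere side, BET5, WAR1 and HMG1, had ratios closer to 0. BET5, which encodes a subunit of the TRAPP tethering complex, had a negative first tag (-0.82 on array 1 and -0.74 on array 2) and a positive second tag (0.19 and 0.10), and averaged -0.32 ± 0.0032. Its small SD hides the disagreement between its tags, since each array averaged the same pair. WAR1, a transcription factor gene for weak acid resistance, was again negative in all 4 tags, at -1.06 and -0.24 on array 1 and -1.01 and -0.53 on array 2, and averaged -0.71 ± 0.087. HMG1, which encodes an HMG-CoA reductase of sterol synthesis, stood at 0.25 ± 0.028 and was the first strain on this side with a positive ratio on both arrays.

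On the telomere side, AIM33 and UFO1 were the closest measured members. For AIM33 array 1 gave -1.57 (first tag) and -3.06 (second tag) and array 2 gave 0.33 and -1.39, for a mean of -1.42 ± 1.26. UFO1, which encodes an F-box protein of ubiquitin ligases, had -2.52 and -3.72 on array 1 and -0.58 and -0.37 on array 2, and averaged -1.80 ± 1.87. Both strains were far below 0 on array 1 (-2.32 and -3.12) and moderately below it on array 2 (-0.53 and -0.47). Neither reached 2-fold on array 2, and the telomere side held 0 members at least 2-fold negative on both arrays.

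The sign then alternated over a few genes. RPM2, which encodes the protein subunit of mitochondrial RNase P, was positive in all 4 tags, from 0.13 to 0.71, and averaged 0.36 ± 0.18. UTP14, a gene of the small-subunit processome in ribosome assembly, was negative in all 4 tags, at -1.13 and -2.13 on array 1 and -0.93 and -0.31 on array 2, and averaged -1.13 ± 0.71. YML096W had -0.32 ± 0.27. These strains stand 6, 8 and 11 ORF numbers from TUB1, so UTP14 was farther from TUB1 than a strain with the opposite sign.

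**Figure D2:**
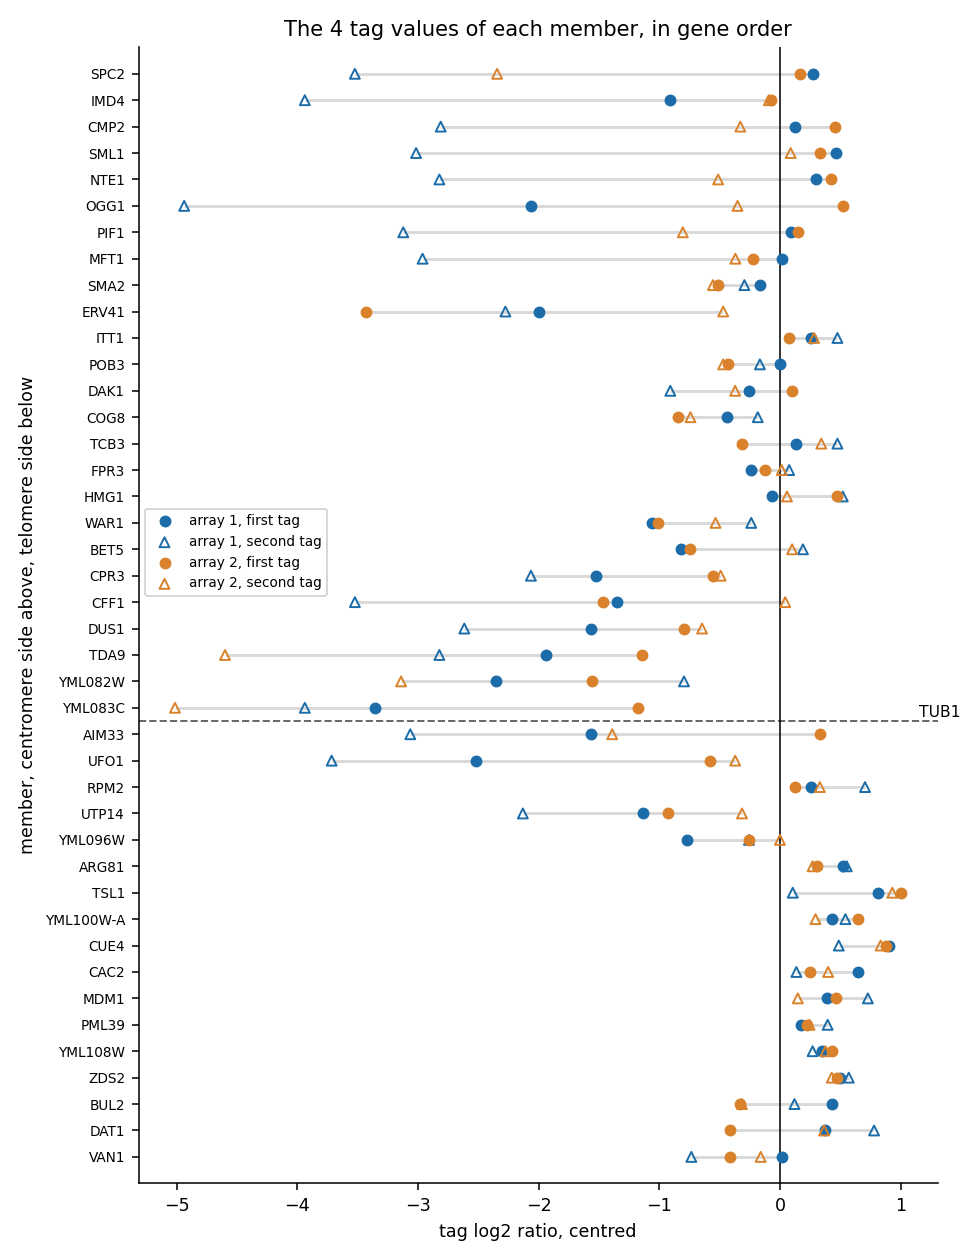
The 4 tag log2 ratios of each member (horizontal axis), with members in gene order from the centromere side at the top to the telomere side at the bottom and TUB1 at the dashed line. Circles are first tags, triangles second tags, and colours the arrays. The 8 uppermost members show low second tags on array 1, from -4.94 to -2.81, and the members from ARG81 to ZDS2 show 4 positive tags each.

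Beyond YML096W the members on the telomere side turned positive over a run of genes. Of the strains here that the rule leaves out, VPS9 (-0.11 ± 0.026), next to YML096W, was negative on both arrays. NUP188 (0.0019 ± 0.0018), also left out, hardly differed between pools. ARG81, a regulator of arginine genes, had 0.52 and 0.55 on array 1 and 0.31 and 0.27 on array 2. TSL1, which encodes a subunit of the trehalose synthase complex, had 0.82 and 0.11 on array 1 and 1.01 and 0.93 on array 2, and averaged 0.72 ± 0.36. YML100W-A averaged 0.48 ± 0.011. CUE4, a gene for a protein with a CUE domain, was the highest member at 0.78 ± 0.11, with 0.90 and 0.49 on array 1 and 0.88 and 0.83 on array 2. In all of these members every tag was positive on either array, and none reached 2-fold on both.

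The run went on through CAC2 (0.36 ± 0.047), a chromatin assembly factor gene, MDM1 (0.43 ± 0.18), PML39 (0.26 ± 0.038), which acts in retaining unspliced mRNA in the nucleus, YML108W (0.36 ± 0.068) and ZDS2 (0.49 ± 0.059). ZDS2 had 0.50 and 0.57 on array 1 and 0.47 and 0.43 on array 2. Of the 13 members more than 10 ORF numbers out on this side, 9 were positive in all 4 tags, against 20.4% of the strains with all 4 values. The last members left this pattern: BUL2 (-0.02 ± 0.42), which encodes an adaptor of the ubiquitin ligase Rsp5, and DAT1 (0.28 ± 0.42) changed sign between arrays, and VAN1 (-0.32 ± 0.049), a mannosyltransferase gene, was negative on both. In this part of the interval 0 of 13 members had tags that differed by 1 log2 unit or more on either array, against 30.5% of all strains on array 1 and 15.3% on array 2.

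The centromere side between 11 and 20 ORF numbers lay slightly below 0, with a median of -0.31 and a single strain far lower. Of its 8 members, 6 were negative on both arrays, against 41.7% of all strains. ERV41, whose product travels in COPII vesicles between the endoplasmic reticulum and the Golgi, had -2.0 and -2.28 on array 1 and -3.43 and -0.47 on array 2. Its value of -2.04 ± 0.13 was a 4.12-fold difference, and all 4 tags were negative. The other 7 members here ranged from -0.55 ± 0.34 for COG8, a gene of the Golgi tethering complex COG, to 0.27 ± 0.13 for ITT1, a translation termination factor gene. SMA2 (-0.38 ± 0.21), DAK1 (-0.36 ± 0.32), POB3 (-0.27 ± 0.26), FPR3 (-0.07 ± 0.019) and TCB3 (0.16 ± 0.21) lay between them. The strains on either side of ERV41, SMA2 and ITT1, thus had ratios much closer to 0, and its low value was not shared by its neighbours.

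Farther toward the centromere, all 8 members from MFT1 to SPC2 were at least 2-fold negative on array 1, against 19.3% of all strains. On array 2 this held for 1 of them, against 5.84% of all strains. The low values lay in the second tag. On array 1 the second tags of these 8 strains ranged from -4.94 to -2.81, while the first tags had a median of 0.11 and the second tags on array 2 a median of -0.36. SML1, which encodes an inhibitor of ribonucleotide reductase, shows the pattern, with 0.46 for the first and -3.02 for the second tag on array 1 and 0.33 and 0.09 on array 2. MFT1, a THO complex gene, PIF1, a DNA helicase gene, NTE1, a phospholipase gene, and CMP2, a calcineurin gene, had first tags between 0.02 and 0.30 on array 1 and second tags between -3.12 and -2.81. A first tag within 0.5 of 0 beside a second tag at or under -2 on array 1 was found in 6 of these 8 strains, against 6.36% of the strains with all 4 values.

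The other members of this stretch, OGG1 and IMD4, had low first tags on array 1 as well. OGG1, a DNA repair glycosylase gene, had -2.06 and -4.94 on array 1 but 0.52 and -0.35 on array 2, so that its mean of -1.71 ± 2.53 rested on 1 array. IMD4, of the IMP dehydrogenase family, had -0.91 and -3.94 on array 1 and -0.08 and -0.09 on array 2. SPC2, a signal peptidase gene, was the only member of the 8 that was low on both arrays, with a second tag of -3.52 and -2.34 and a first tag of 0.28 and 0.17. By its first tag alone SPC2 averaged 0.22 and by its second -2.93, so its strain value of -1.36 ± 0.38 describes neither tag.

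Repeated spots bear on how firmly these tags were measured. In 9 members each tag had 6 spots, and the other 33 members, all those within 10 ORF numbers of TUB1 among them, had 1 spot a tag and therefore no spread of their own. Over the 30 tag means of those 9 members that lay within 1 of 0, the median SD between spots was 0.125. Over the 6 tag means at or under -2 the SD ran from 0.41 to 1.37. For SML1 the 6 spots of the second tag on array 1 ran from -4.20 to -2.35 and those of SPC2 from -5.52 to -1.57, so that every spot of these tags was low while their size was uncertain.

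**Figure D3:**
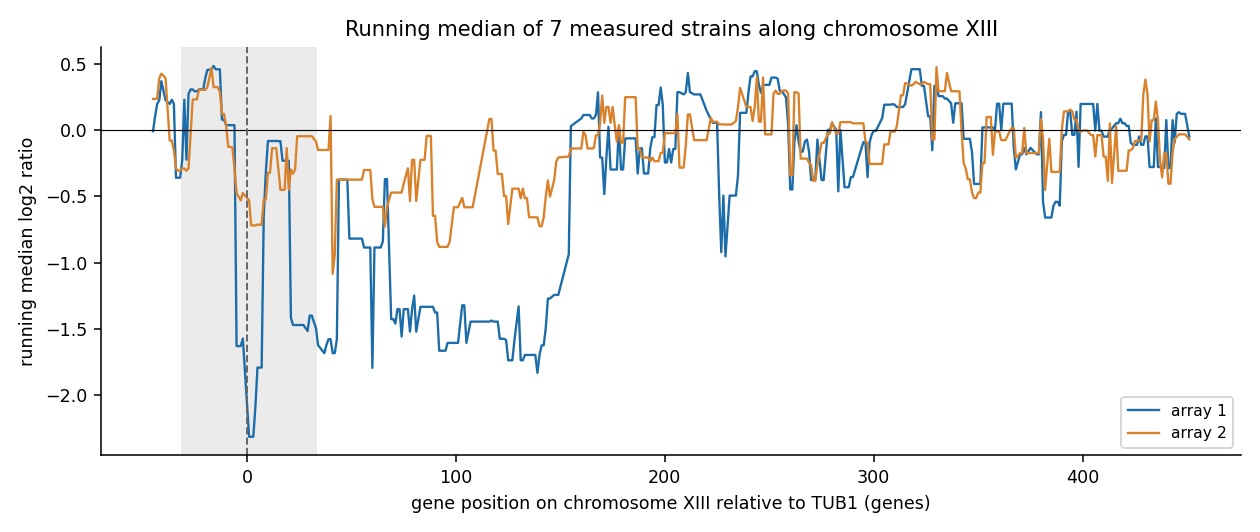
Running median of the log2 ratio over 7 measured strains (vertical axis) against gene position relative to TUB1 along chromosome XIII (horizontal axis), with array 1 and array 2 as lines, the interval shaded and TUB1 dashed. Array 1 falls to -2.32 beside TUB1, returns to near 0 and then stays low over a long stretch on the centromere side and past it, while array 2 reaches -0.72 beside TUB1 and -1.08 outside the interval.

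The low second tags of the far centromere side did not stop at the end of the interval. Grouped by gene position, the strains 31 to 60 genes from TUB1 in that direction, the last members among them, had a median second tag of -2.94 on array 1, and those 121 to 150 genes away -2.85, with first tags at -0.28 and -0.23. On array 2 the second tag was low in part of this stretch too, with medians of -1.08 at 91 to 120 genes and -0.84 at 121 to 150, beside first tags at -0.09 and -0.05. From 151 to 180 genes away the second tag was at 0.15 on array 1 and -0.03 on array 2. The members from MFT1 to SPC2 are thus the near end of a stretch in which the second tag was low on array 1 and, less far below 0, on array 2, and the dip beside TUB1 was separated from it by the members from HMG1 to SMA2, of which ERV41 was low. Within 10 ORF numbers on the centromere side the first tags were low too, with medians of -1.52 on array 1 and -1.01 on array 2, beside -2.06 and -0.53 for the second tags. Along chromosome XIII the lowest running median of the means, -1.80, was centred on YML083C, and the lowest outside the interval was -1.51 at RSE1. On array 2 alone the order was the other way, with -0.72 in the interval and -1.08 at RSE1, so the dip beside TUB1 was the lowest of the chromosome on array 1 and not on array 2.

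Probe numbers of the members follow gene order exactly (rho of -1 over 42 strains), so place on the chromosome and place in the probe list cannot be told apart for tags with 1 spot.

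**Figure D4:**
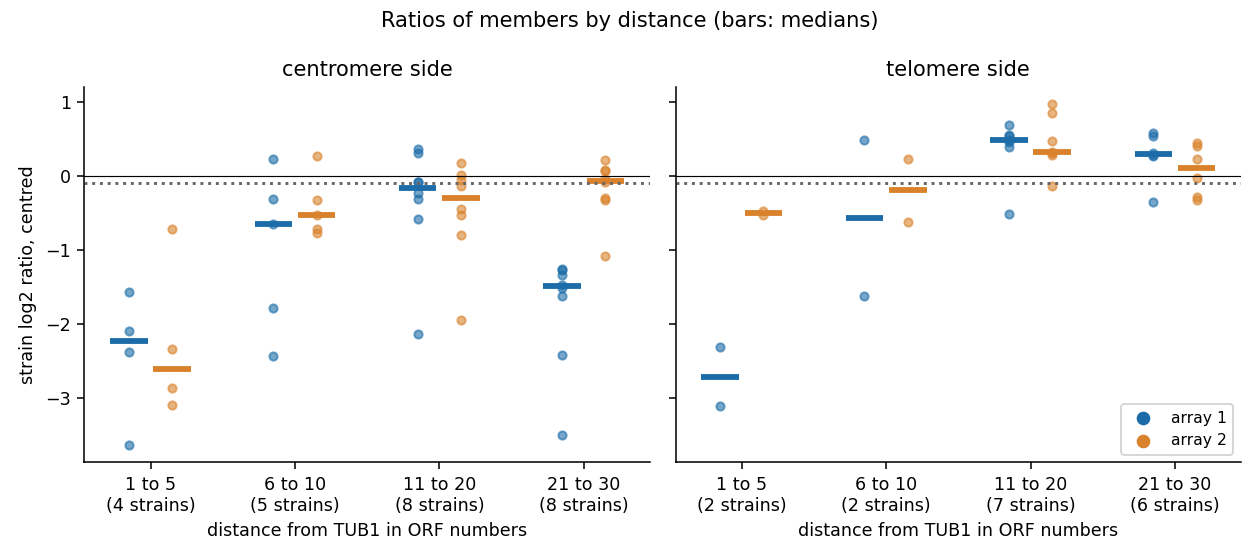
Strain log2 ratios of members (points) and their medians (bars) on each array, by distance from TUB1 in ORF numbers, for the centromere side at left and the telomere side at right. The dotted line is the median of all strains at -0.09. On the centromere side the medians go from -2.24 and -2.61 nearest to TUB1 to -0.16 and -0.29 at 11 to 20, and on the telomere side from -2.72 and -0.50 to 0.49 and 0.33.

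By distance, the median on the centromere side was -2.29 at 1 to 5 ORF numbers (4 strains), -0.71 at 6 to 10 (5 strains), -0.31 at 11 to 20 (8 strains) and -0.90 at 21 to 30 (8 strains). On the telomere side it was -1.61 (2 strains), -0.39 (2 strains), 0.43 (7 strains) and 0.27 (6 strains). The rise away from TUB1 reversed at the far end of the centromere side, and with first tags alone it did not, since the median there was 0.17. Over the whole side the median was -0.71 toward the centromere (-1.34 on array 1 and -0.33 on array 2) and 0.36 toward the telomere (0.39 and 0.23), against -0.09 for all strains.

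As a description over strains that share arrays and pools, the Spearman rho of the ratio with distance was 0.20 on the centromere side (n = 25) and 0.26 on the telomere side (n = 17). For first tags on the centromere side it was 0.65 on array 1 and 0.71 on array 2, and for second tags -0.32 and 0.23. Each bin held under 20 strains and several decided the value. Without the bin of 1 to 5 ORF numbers the rho turned to -0.30 on the centromere side and to -0.08 on the telomere side. Without the bin of 21 to 30 it rose to 0.57 and 0.79, without that of 11 to 20 it was 0.50 and 0.42, and without that of 6 to 10 it was 0.10 on the telomere side. For the mean of both tags the sign of the relation thus rested on the nearest strains on either side, while first tags on the centromere side had medians of -1.75, -1.04, -0.20 and 0.17 from the nearest bin to the farthest. Bins were left out only for the mean of both tags.

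**Figure D5:**
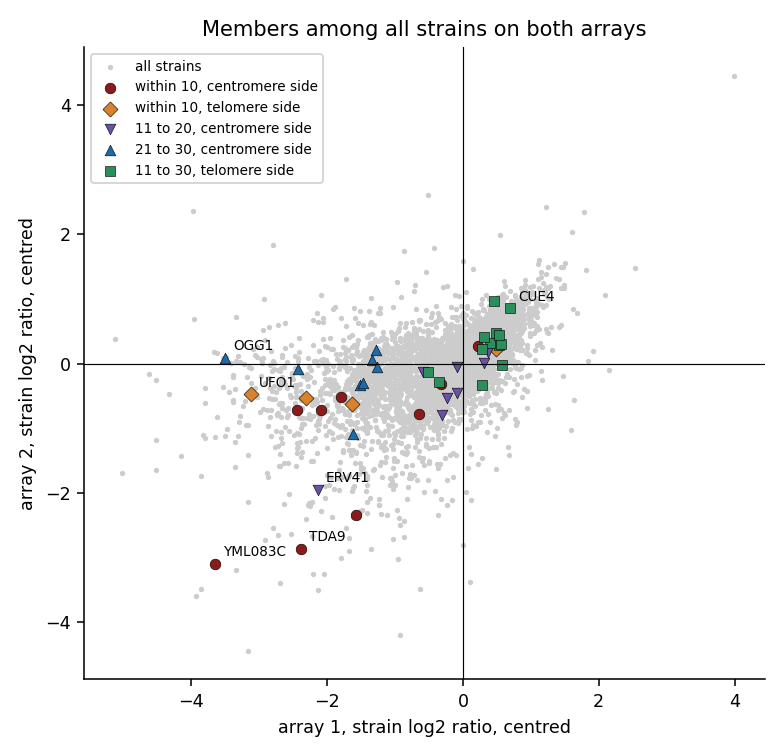
Strain log2 ratio on array 1 (horizontal axis) against array 2 (vertical axis) for all 5219 strains in grey and the members in colour by side and distance in ORF numbers. YML083C and TDA9 are low on both arrays, OGG1 and UFO1 only on array 1, and the members 11 to 30 numbers out on the telomere side gather between 0 and 1 on array 1 except for YML096W and VAN1.

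No member passed the test across all strains. With limma and Benjamini-Hochberg adjustment over 5219 strains, 0 of 42 members were called in either direction, as were 0.0% of all strains, and the lowest adjusted p among members was 0.229, shared by YML083C, TDA9, YML082W, ERV41, SPC2, WAR1 and CUE4. At an unadjusted p under 0.05 there were 6 negative members, YML083C, TDA9, ERV41, YML082W, SPC2 and WAR1, against 11.7% of all strains, and 4 positive members, CUE4, TSL1, ZDS2 and YML100W-A, against 9.12%. These shares, 14.3% and 9.52% of the members, were near those of all strains. When both tags were kept in limma with the array as a random block, 4 members were called negative, against 3.18% of all strains, and 3 positive, against 6.71%. The adjusted p was then 0.037 for YML083C, 0.044 for TDA9, 0.043 for YML082W and 0.047 for ERV41, and 0.035 for CUE4, 0.041 for ZDS2 and 0.048 for YML100W-A. That fit counts the tags of an array as separate measurements and none of its calls was made by any other fit. Its estimated correlation between tags of an array was -0.29, and a negative value makes its standard errors smaller. The same tag being measured on both arrays was not part of that fit.

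At least 2-fold negative ratios on both arrays were found for 5 of 42 members, YML083C, TDA9, ERV41, YML082W and SPC2, or 11.9%, against 3.74% of all strains. All 5 lay on the centromere side, and 3 of them within 5 ORF numbers of TUB1. On array 1 alone the count was 18, or 42.9%, against 19.3% of all strains. On array 2 alone it was 5, or 11.9%, against 5.84%. In the other direction 0 members passed 2-fold on both arrays, as did 0.728% of all strains. Outside the interval, 25 of 352 other strains of chromosome XIII were 2-fold negative on both arrays, or 7.10%, and their median was -0.19.

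The 16 measured strains of the interval that the rule leaves out had a median of -0.04, and 0 of them were 2-fold negative on both arrays. On the centromere side within 10 ORF numbers only ATP18 was of this kind, at -0.23 ± 0.18, although it lies between YML082W and TDA9. Near TUB1 on the telomere side PRE8, GIM5 and RAD10 had -0.08 ± 0.30, 0.37 ± 0.068 and 0.04 ± 0.0026. On array 2 the tags of PRE8 were 0.98 and -1.56 and those of RAD10 0.29 and -0.22. The means of these 2 strains thus hide tags of opposite sign, while every tag of GIM5 was positive. Low ratios beside TUB1 were therefore not found in every strain, and with all 58 measured strains of the interval the median at 6 to 10 ORF numbers on the telomere side was 0.04. At 11 to 30 ORF numbers on that side, the 8 left-out strains had a median of 0.05, against 0.36 for the 13 members. These 8 ranged from -0.55 (TAF8) to 1.35 (CTK3).

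URA3, the locus that the control cassette targets, offers a comparison on chromosome V, with the pools exchanged. That cassette was used in the control pool, so the same change beside it would have the opposite sign to one beside TUB1. Of 60 genes within 30 gene positions of URA3, 46 strains were measured, and their median was -0.18, with -0.28 on array 1 and -0.04 on array 2. Within 5 gene positions the 7 measured strains had a median of -0.16 and ranged from -0.71 to 0.39, where the 6 members within 5 ORF numbers of TUB1 ranged from -3.37 to -1.41. On array 2 alone the ranges overlapped, with RIP1 beside URA3 at -0.81 and DUS1, AIM33 and UFO1 beside TUB1 at -0.72, -0.53 and -0.47. ATP18, which the rule leaves out, also lay within the range of the strains beside URA3. At least 2-fold negative ratios on both arrays were found for 2 of 46 strains, ANP1 (-1.25 ± 0.35) and NPP2 (-1.18 ± 0.21), or 4.35%, close to the 3.74% of all strains. In the positive direction 0 of 46 reached 2-fold on both arrays, against 0.728% of all strains. Positive on both arrays were 16 of 46, or 34.8%, against 32.7% of all strains. The difference between the intervals was not tested.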

How the data were processed

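Tags of 2 pools were compared on 2 two-colour arrays. Images were analysed with GenePix 5.1, per the labels, and the authors deposited log2 ratios per spot: converted back, 100% of 40008 values fell within 0.001 of a ratio with 2 decimals. How background and dyes were corrected is not given in the sources used here. Spot brightness was not used, so precision is limited by the number of arrays. A ratio of 1e+06 (2 values) was treated as missing.

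Gene names came from GEO's annotation of the platform, matched to NCBI's R64 gene table, from which names and gene order but no coordinates were taken (18786 of 18794 named probes matched). Repeat spots were averaged, the median of each array's tag set was subtracted (a shift of 0.12 on array 1 and 0.04 on array 2), and tags were averaged. Symbols with several probes in a tag set (105) were left out.

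Strains were tested against 0 with limma 3.58.1 in R 4.3.3 (two-sided, Benjamini-Hochberg over 5219 strains, threshold 0.05), a step tried on simulated data. Simulated noise was equal in all strains, so the trial does not show how the test performs on these arrays. Tables used Python 3.11.15 and pandas 2.3.3, and plots matplotlib 3.10.9. Members and lists were chosen with earlier results of these data known. Named in full were the 8 members nearest to TUB1 on each side, any others beyond 2-fold on both arrays and the 3 highest and lowest. Alternatives were other centring, quantile normalization, spot medians, single tag sets, no smallest ratios, single arrays, other limma fits, folds and distances. Tag sequences were not used here.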

Additional observations from a re-analysis of the deposited data

Results flagged for a closer look

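ALO1 (YML086C), which encodes an oxidase of erythroascorbate synthesis, is the gene next to TUB1 by number on the telomere side, and it entered no comparison because 2 tag pairs carry its name. It is given here because its tags are data outside the main measurement with ratios far from 0. The pair of probes 4173 and 15144 had -1.62 and -2.94 on array 1 and -1.11 and -1.11 on array 2, with a mean of -1.69 ± 0.83 (SD, n = 2 arrays). The pair of probes 4174 and 15145 had -0.64 and 0.06 on array 1 and -0.30 and -0.14 on array 2, with a mean of -0.25 ± 0.051. All 4 values of the former pair were at least 2-fold negative, which held for 0.597% of the strains that had all 4 values. Which pair belongs to the strain lacking ALO1 was not tested.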

How the results depend on the processing

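No paired analysis was possible because the arrays form 1 group. Of 206 recomputed results, 168 stayed within their bounds (the SD between arrays, or 1.5 times for counts). A bound is wide where the arrays disagree, so that count is no measure of stability. At 21 to 30 on the centromere side a bound of 1.01 held both -1.49 on array 1 and -0.06 on array 2. Single arrays gave 18 members 2-fold negative on array 1 and 5 on array 2, against 19.3% and 5.84% of all strains. Medians on the telomere side were 0.23 to 0.39. On the centromere side single arrays gave -2.61 to -2.24 at 1 to 5 ORF numbers and -0.65 to -0.52 at 6 to 10. At 11 to 20 on that side they gave -0.29 to -0.16. At 21 to 30 on the telomere side they gave 0.11 to 0.30, and the rho with distance ran from 0.084 to 0.49 on the centromere side and from 0.26 to 0.37 on the telomere side. The first tag set alone gave a centromere-side rho of 0.70, with medians by distance of -1.75, -1.04, -0.20 and 0.17, a telomere-side median of 0.20 and 0.12 at 21 to 30. There SPC2, 2-fold negative in the main values, turned to 0.22. The second tag set alone gave a centromere-side median of -1.46, with -2.84 at 1 to 5 and -0.39 at 6 to 10. Quantile normalization moved the median at 6 to 10 on the centromere side to -0.91. A 1.5-fold threshold gave 9 negative members and 1 positive, and the share of all strains at that threshold was not computed. With the array as a random block limma called 7 members in place of 0 and 350 positive and 166 negative strains of all. In the other limma fits 0 members and 0 strains were called. With all measured strains of the interval the median was -1.96 at 1 to 5 on the centromere side, and 0.22 over the telomere side with 0.037 at 6 to 10. With distance counted in genes, the members' median at 6 to 10 on the telomere side was -0.72. Leaving out bins of distance moved rho on the centromere side to -0.30 without 1 to 5, 0.50 without 11 to 20 and 0.57 without 21 to 30. On the telomere side it moved to -0.082, 0.10, 0.42 and 0.79 without each bin in turn, and the median to 0.12 without 11 to 20. Chosen after seeing the data, including ALO1 gave a telomere-side rho of 0.36, and leaving out the second tag of array 1 gave a centromere-side rho of 0.61 and medians of -0.92 at 6 to 10 and -0.21 at 11 to 20. Apart from fewer strains or tags in these settings, the cause of the moves was not tested. The number of arrays and the single spots near TUB1 limit what can be told apart.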

Other observations

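Some tag pairs without a gene name here have probe numbers among those of the members, and no gene is assigned to them. The pair 4171 and 15142 had -4.94 and -3.94 on array 1 and 0.00 and -1.31 on array 2, with a mean of -2.55 ± 2.67 (SD, n = 2 arrays), and was low mainly on array 1. The pair 4177 and 15148 averaged -1.18 ± 1.16, with the second tag of array 1 at -4.52 and the first at 0.52. The pair 4178 and 15149 was positive in all 4 values and averaged 0.96 ± 0.22. The other 3 pairs averaged -0.77 ± 1.52, -0.40 ± 0.70 and 0.21 ± 0.025.

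Across all chromosomes, strains next to each other in gene order had weakly similar ratios. As a description over 5199 pairs of neighbours, the Spearman rho of a strain's value with that of the next was 0.076.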
